A study of Mus musculus with 12 samples.

Results

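The tumour necrosis factor (TNF) superfamily and the adaptors that its receptors use were followed in T cells and macrophages from mouse lung tumours. The genes were taken by name. They comprise every symbol of the panel that starts with Tnfsf, Tnfrsf or Traf, together with Tnf, Lta, Ltb, Ltbr, Cd27, Cd70, Fas and Fadd, which gave 35 of the 770 genes measured. They divide into 14 ligands, 6 T cell costimulatory receptors, 3 receptors with a death domain, 3 receptors for BAFF and APRIL, 5 other receptors and 4 adaptors. Cd40, Cd40lg and Fasl also belong to the superfamily but lie outside the naming rule, and their values are given separately.

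The mouse immune panel was of the NanoString type, in which barcoded probes hybridise to RNA and are counted without amplification. The animals were a genetically engineered model of lung cancer on a mixed background strain, and all groups shared it. They received ricolinostat, which inhibits histone deacetylases and among them chiefly HDAC6, JQ1, which blocks the bromodomains that bind acetylated histones, or vehicle. Macrophages and T cells were purified from tumour suspensions, which gave 6 groups of 2 libraries each: macrophages and T cells under ricolinostat, under JQ1 and under vehicle. Age, dose and duration of treatment are not given in the sources used here, nor is it stated how the cells were purified or whether the 2 libraries of a group came from separate animals. P-values therefore reflect only how far libraries of a group differ, and that spread may be technical.

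Most TNF superfamily ligands are trimers made at the cell surface or released from it, and each binds one or a few receptors on a neighbouring cell. Receptors with a death domain recruit FADD or related proteins and can start caspase-dependent death, whereas the costimulatory receptors recruit TRAF proteins and activate NF-kB, which prolongs T cell survival and effector function. TNF itself and lymphotoxin alpha are products of activated lymphocytes and, for TNF, of macrophages. Lymphotoxin beta anchors lymphotoxin alpha at the surface of lymphocytes, and the complex binds the lymphotoxin beta receptor on stromal and myeloid cells.

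Several of the genes are neighbours in the genome. On chromosome 17, Ltb, Tnf and Lta follow each other with no other protein-coding gene between them. On chromosome 4, Tnfrsf4 and Tnfrsf18 lie next to each other, and so do Tnfsf15 and Tnfsf8 and, elsewhere on it, Tnfrsf1b and Tnfrsf8. On chromosome 11, Tnfsf13 and Tnfsf12 are adjacent, and on chromosome 6 a single gene, Tuba3a, separates Cd27 from Ltbr. RefSeq promoter sequences, from 250 bases before to 50 bases after the transcription start, were found for 30 of the 35 genes. The windows of 4 genes are printed because the first 3 of them carry the differences under JQ1 described below, and Tnf is a neighbour of Ltb that did not pass the test. In GRCm38.p6 they lie at chr17:35194257-35194556 on the plus strand for Ltb, chr6:125236978-125237277 on the minus strand for Cd27, chr4:156026072-156026371 on the plus strand for Tnfrsf18 and chr17:35201958-35202257 on the minus strand for Tnf. Capitals mark a match to the 10-base NF-kB consensus (Ltb) or to TATAAA (Tnf).
Ltb: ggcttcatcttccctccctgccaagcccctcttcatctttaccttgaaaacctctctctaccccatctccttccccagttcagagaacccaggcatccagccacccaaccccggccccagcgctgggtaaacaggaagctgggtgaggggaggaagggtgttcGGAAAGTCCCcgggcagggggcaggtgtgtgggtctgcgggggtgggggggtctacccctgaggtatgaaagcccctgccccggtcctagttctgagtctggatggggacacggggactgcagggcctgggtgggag
Cd27: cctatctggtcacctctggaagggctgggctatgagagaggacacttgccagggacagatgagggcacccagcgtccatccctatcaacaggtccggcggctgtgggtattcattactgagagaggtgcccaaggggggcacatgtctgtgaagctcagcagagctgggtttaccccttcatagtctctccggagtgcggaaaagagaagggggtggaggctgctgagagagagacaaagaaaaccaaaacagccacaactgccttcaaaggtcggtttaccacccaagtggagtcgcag
Tnfrsf18: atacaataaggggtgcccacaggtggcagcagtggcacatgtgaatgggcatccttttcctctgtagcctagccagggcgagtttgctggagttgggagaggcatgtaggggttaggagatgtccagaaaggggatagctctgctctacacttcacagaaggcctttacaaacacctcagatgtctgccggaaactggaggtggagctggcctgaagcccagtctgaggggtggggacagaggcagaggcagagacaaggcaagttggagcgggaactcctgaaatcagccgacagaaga
Tnf: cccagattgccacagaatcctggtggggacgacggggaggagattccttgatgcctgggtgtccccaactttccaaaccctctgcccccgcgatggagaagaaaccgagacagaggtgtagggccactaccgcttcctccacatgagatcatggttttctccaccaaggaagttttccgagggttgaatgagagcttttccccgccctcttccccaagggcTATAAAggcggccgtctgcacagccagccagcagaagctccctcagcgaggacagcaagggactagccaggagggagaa

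The capitals in Ltb cover bases -87 to -78 from the start and match the consensus on the minus strand of the gene. The capitals in Tnf cover bases -29 to -24 and are a TATA box sequence on the gene's own strand. Among the 32851 promoter windows of the table, 8.46% hold the NF-kB consensus on either strand, 7.81% hold the AP-1 sequence TGANTCA on either strand, and 8.32% hold TATAAA on the gene's strand. Of the 30 member genes with a window, 4 hold the NF-kB consensus, namely Ltb, Tnfrsf8, Tnfrsf9 and Traf3. The AP-1 sequence was found for 6 genes, Fas, Tnfrsf8, Tnfrsf9, Tnfsf13, Tnfsf13b and Tnfsf14, and TATAAA for 4, Lta, Tnf, Tnfrsf17 and Tnfsf18. None of these motifs occurs in the windows of Cd27 and Tnfrsf18.

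Each library held between 773578 and 2081799 estimated counts above background, and between 21 and 28 of the 35 genes exceeded a normalised signal of 20, the level used as a floor. At that floor a gene rested on 2.70 to 14 counts, depending on the library. In 10 libraries the 35 genes together took 0.420% to 0.505% of all signal. Ricolinostat replicate 2 stood apart in both cell types, at 1.92% in macrophages and 1.63% in T cells. Over genes above 20, the log2 difference between replicates had an SD of 2.46 in ricolinostat macrophages and 1.97 in ricolinostat T cells, against 0.457 to 0.575 in the JQ1 and vehicle groups. Results are therefore given with all libraries and without ricolinostat replicate 2. T cell markers did not all bear out the labels. The summed signal of 15 markers, Cd27 left out, was 3272 and 3525 in T cells under ricolinostat and 194 and 187 in T cells under JQ1, against 5359 and 5603 in T cells under vehicle. In macrophage libraries this sum was 320 and 636 under ricolinostat, 139 and 141 under JQ1, and 269 and 436 under vehicle. All 16 macrophage markers exceeded 20 in every library of either label. The libraries are called by their labels.

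**Figure D1:**
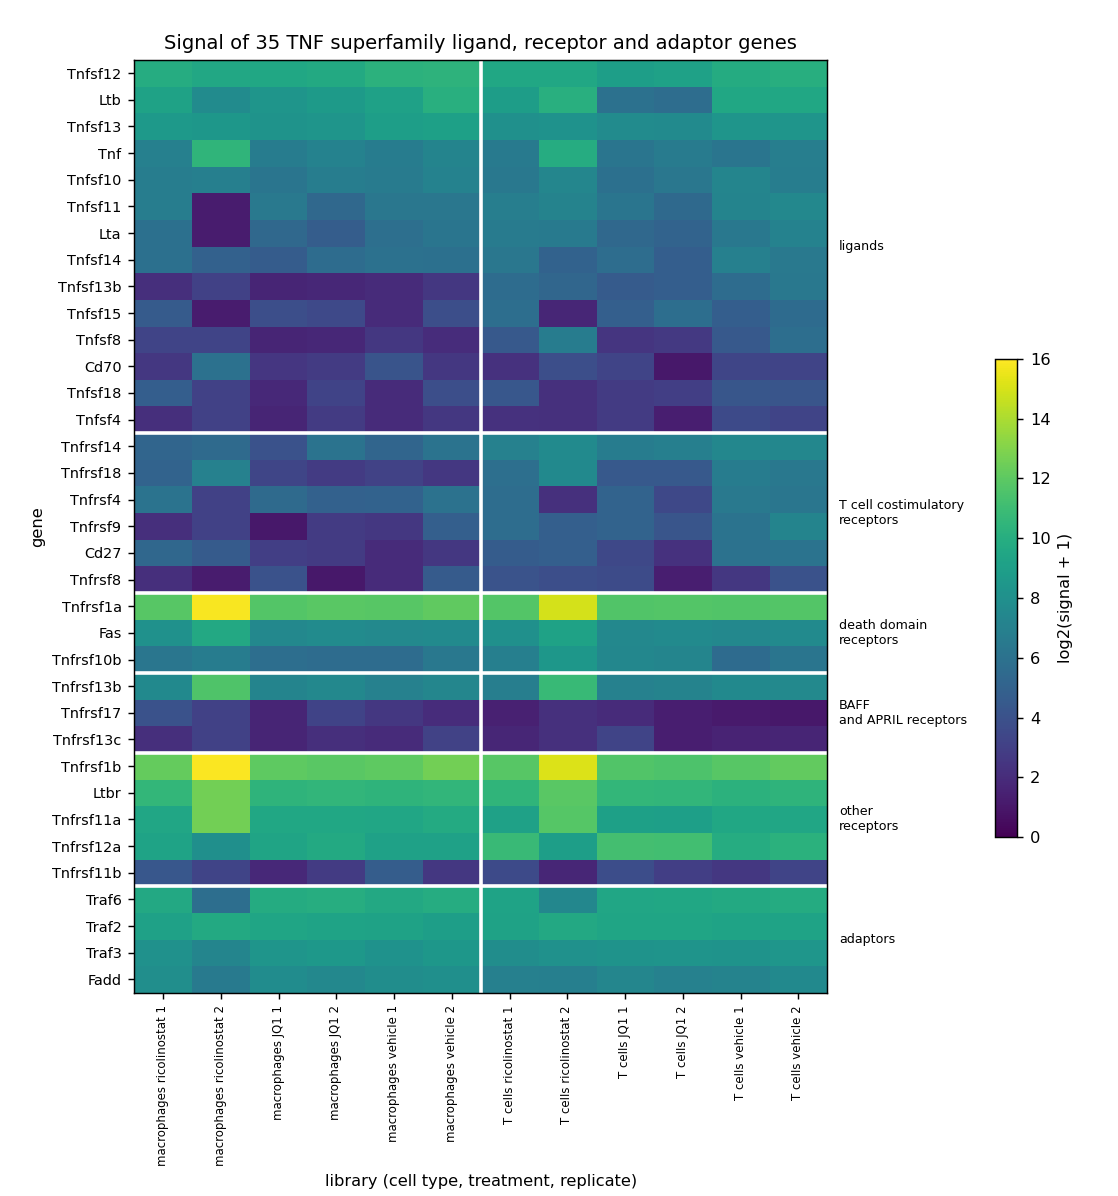
Signal of the 35 genes on the log2(signal + 1) scale (colour), with 1 row per gene grouped by role and 1 column per library. The ricolinostat replicate 2 columns differ from all others, with Tnfrsf1a and Tnfrsf1b far above and Traf6 below the remaining libraries, and Ltb is low in the JQ1 T cell columns.

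Tested on log2(signal + 1) with limma and Benjamini-Hochberg (BH) adjustment over all genes at 0.05, a ligand and a costimulatory receptor were lower under JQ1 in T cell libraries. Of 28 members with at least 2 of the 6 libraries above 20, Ltb and Cd27 fell and none rose. Across the panel 35 of 630 genes passed (5.56%), all lower under JQ1. Leaving out any single JQ1 or vehicle library, so that the one left is assumed to vary like the others, ended both calls, and over all alternatives the adjusted p of Ltb ranged from 0.0041 to 0.265 (limma). After centring Ltb alone passed, and after quantile normalisation neither did. The median difference was -0.53 over the 28 members and -0.38 over all 630 genes. Values were negative for 23 of the 28 members, against 466 of all 630 genes (74%). They were negative for 17 members after centring each library on its median and for 14 after quantile normalisation. These settings moved the median over all genes to -0.06 and 0.04. Without ricolinostat replicate 2, 102 of 624 genes passed (16.3%), and among 28 members 4 fell (Ltb, Cd27, Tnfrsf18 and Tnfsf12) and 2 rose (Tnfrsf12a and Tnfrsf10b).

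Among the ligands, Ltb, lymphotoxin beta, had a signal of 62.9 and 51.8 in T cells under JQ1 and 471 and 1113 in T cells under ricolinostat, against 755 and 735 in T cells under vehicle. Both JQ1 libraries lay far below the other 4. The difference between JQ1 and vehicle was -3.68 ± 0.60 (log2, SE), or 12.8-fold lower, with an adjusted p of 0.0284 by limma, and 0.0041 without ricolinostat replicate 2. Its neighbours had smaller differences. Lta, the partner chain of lymphotoxin beta, had 41.5 and 33.2 under JQ1, against 83.4 and 134 under vehicle, a difference of -1.48 that did not pass (adjusted p = 0.261, limma). Tnf had 74.3 and 99.7 under JQ1, against 73.7 and 113 under vehicle, and these libraries overlapped (difference -0.08 ± 1.12, log2, SE).

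Tnfsf12 encodes TWEAK, a cytokine that acts on epithelial and stromal cells through the receptor Tnfrsf12a. It had 495 and 559 under JQ1, against 927 and 1056 under vehicle, a difference of -0.91 that passed when either ricolinostat replicate was left out but not with all libraries (adjusted p = 0.0498 without replicate 2, and 0.535 with all libraries, limma). The adjacent Tnfsf13, which encodes APRIL, had 213 and 203 under JQ1, against 320.2 and 319.9 under vehicle (adjusted p = 0.821, and 0.0696 without ricolinostat replicate 2, limma). Tnfsf8, the CD30 ligand, had 4.42 and 5.38 under JQ1, against 20.8 and 53.3 under vehicle. Both JQ1 values were below the floor, so the signal was at least 1.64-fold lower, and the adjusted p was 0.261, or 0.0522 without ricolinostat replicate 2 (limma). The remaining tested ligands, Tnfsf10 (TRAIL), Tnfsf11 (RANKL), Tnfsf13b (BAFF) and Tnfsf14 (LIGHT), had differences from -1.51 to -0.93. None of these passed. Negative differences were common in this comparison, with 466 of all 630 genes (74%), so this direction is not particular to the ligands. Tnfsf15, which encodes TL1A, overlapped at 27.2 and 53.3 under JQ1, against 26.7 and 47.0 under vehicle.

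All 5 tested costimulatory receptors had lower values under JQ1, with a median difference of -2.09. Values were also lower for 466 of all 630 genes (74%), with a median of -0.38. Cd27, which sustains T cell survival on binding CD70, had a signal of 10.1 and 3.84 in T cells under JQ1 and 24.7 and 27.6 in T cells under ricolinostat, against 65.8 and 66.0 in T cells under vehicle. As both JQ1 values were below 20, the signal was at least 3.19-fold lower (adjusted p = 0.0393, and 0.0303 without ricolinostat replicate 2, limma). Tnfrsf18, known as GITR and abundant on regulatory T cells, had 21.5 and 20.9 under JQ1, 55.7 and 193 under ricolinostat, and 103.0 and 85.0 under vehicle. Its difference of -2.09 under JQ1, or 4.26-fold lower, had an adjusted p of 0.256 with all libraries and 0.0108 without ricolinostat replicate 2 (limma). The adjacent Tnfrsf4, known as OX40, had 32.9 and 10.02 under JQ1, against 87.4 and 76.6 under vehicle, and did not pass (adjusted p = 0.645, and 0.0984 without ricolinostat replicate 2, limma). Tnfrsf9, known as CD137, had 32.9 and 17.8 under JQ1, against 67.8 and 146 under vehicle (adjusted p = 0.256, limma). Tnfrsf14, the herpesvirus entry mediator that binds LIGHT, had 103 and 117 under JQ1, against 171 and 172 under vehicle (adjusted p = 0.853, limma).

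**Figure D2:**
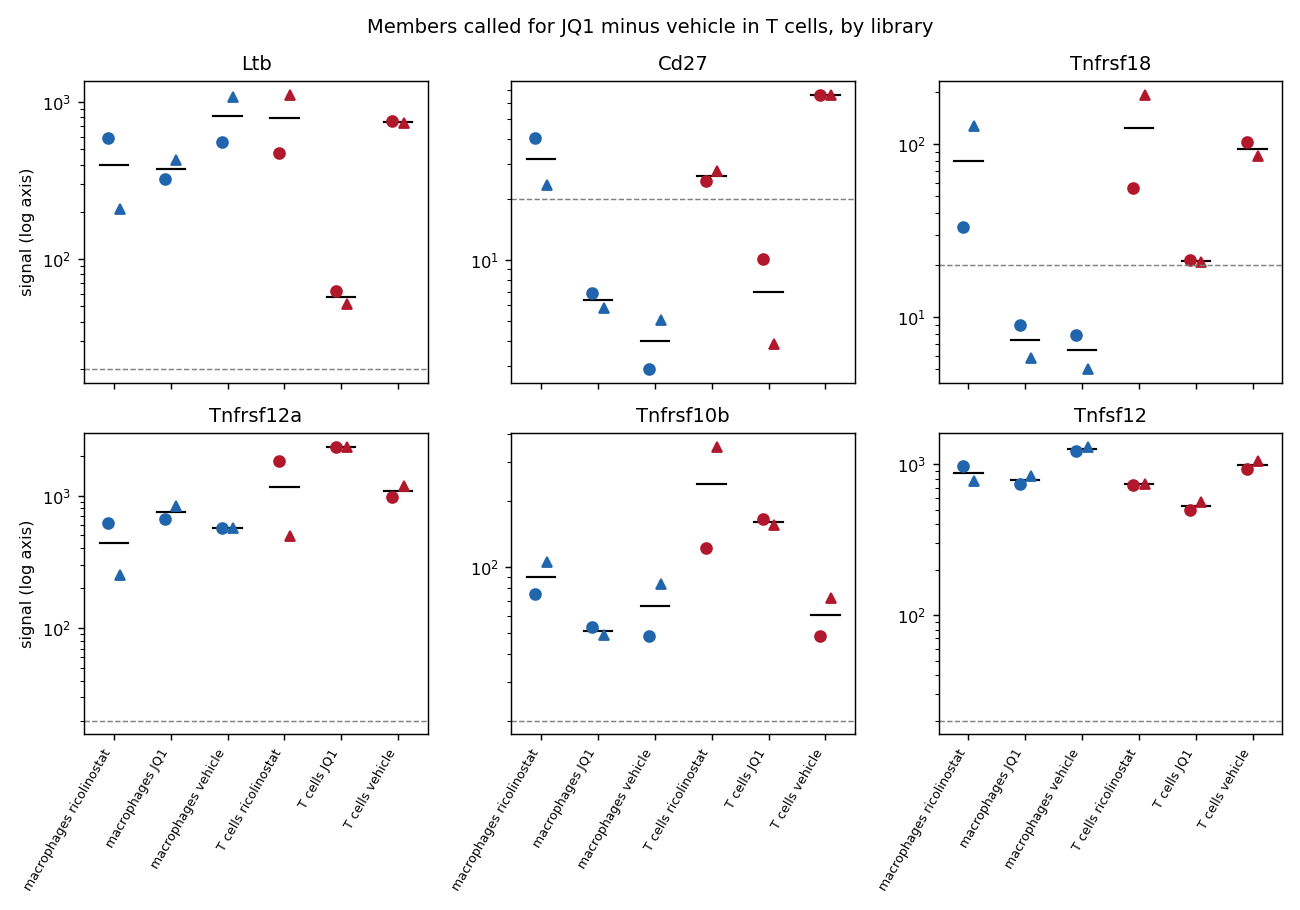
Signal (log axis) of the 6 genes that passed the test for JQ1 against vehicle in T cells with all libraries or without ricolinostat replicate 2, in each of the 6 groups. Circles are replicate 1, triangles replicate 2, blue macrophages, red T cells, bars group means and dashed lines a signal of 20. Ltb in JQ1 T cells lies below every other library of either cell type, and Cd27 and Tnfrsf18 there lie near or below the dashed line.

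The genes that rose under JQ1 were receptors known from epithelial cells and fibroblasts as well as leukocytes. Tnfrsf12a, the TWEAK receptor Fn14, had 2349 and 2315 in the JQ1 T cell libraries, against 974 and 1188 in the vehicle T cell libraries, a 2.17-fold higher signal. Tnfrsf10b, the death receptor that binds TRAIL in mice, had 166 and 155 under JQ1, against 48.2 and 72.3 under vehicle, a 2.69-fold higher signal. Both passed when either ricolinostat replicate was left out but not with all libraries, with adjusted p of 0.0361 and 0.0435 without replicate 2, against 0.727 and 0.462 (limma). The other death domain receptors overlapped between groups. Tnfrsf1a, the TNF receptor expressed by nearly all cell types, had 3212 and 3392 under JQ1, against 3289 and 3325 under vehicle, a difference of 0.00 ± 0.15 without ricolinostat replicate 2 (log2, SE). Fas had 177 and 197 under JQ1, against 177 and 204 under vehicle.

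Differences of the remaining receptors lay between -0.45 and 0.22. Tnfrsf1b, the TNF receptor of leukocytes, had 3271 and 2961 under JQ1, against 3711 and 4641 under vehicle. Ltbr, the lymphotoxin beta receptor, had 1516 and 1478 under JQ1, against 1228 and 1336 under vehicle. Tnfrsf11a, which encodes RANK, had 535 and 524 under JQ1, against 727 and 716 under vehicle, and Tnfrsf13b, which encodes the BAFF and APRIL receptor TACI, had 131 and 143 under JQ1, against 189 and 180.3 under vehicle. None of these 4 passed. Of the adaptors, Traf2, which binds most TNF receptor family members, had 672 and 684 under JQ1, against 631 and 620.4 under vehicle. Traf6, which also serves interleukin-1 and Toll-like receptors, had 703 and 754 under JQ1, against 831 and 938 under vehicle. Traf3 and Fadd overlapped, and none of the 4 adaptors passed. The 7 members left untested in T cells were Cd70, Tnfsf4, Tnfsf18, Tnfrsf8, Tnfrsf11b, Tnfrsf13c and Tnfrsf17, with at most 19.5 in any T cell library.

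Markers of cell types moved with these differences. Of the 15 T cell markers 12 fell under JQ1, and between 2 and 4 of them exceeded 20 in the JQ1 libraries, against 15 in the vehicle libraries. Cd3e, which encodes a CD3 subunit, had 4.42 and 1.55 under JQ1, against 432 and 563 under vehicle. In such bulk samples, fewer cells of a type and less RNA per cell cannot be told apart. The summed signal of 4 epithelial markers reached 82361 and 76913 in JQ1 T cells, against 16444 and 20894 in vehicle T cells, and all 4 passed as higher without ricolinostat replicate 2. The sum over 8 NK cell markers was 57.0 and 50.3 in JQ1 T cells, against 328 and 465 in vehicle T cells. That over 6 dendritic cell markers was 113 and 107 in JQ1 T cells, against 873 and 836 in vehicle T cells. Of these 6, only Ccr7 and Itgae passed as lower, and Xcr1 and CD209e were at or below 20 in every T cell library. Of 16 macrophage markers 15 had lower values under JQ1 and 1 higher, with a median difference of -0.52, against -0.38 over all genes. None of the macrophage markers passed. Of 8 B cell markers, 2 to 3 exceeded 20 in JQ1 T cells, against 4 in vehicle T cells, with sums of 1645 and 1736 in JQ1 T cells, against 1989 and 2329 in vehicle T cells. The part of these cell types in the values of Ltb, Cd27, Tnfrsf18, Tnfrsf12a and Tnfrsf10b was not tested.

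In macrophages no member passed for JQ1 against vehicle. None of 564 genes did (0%), and 7 had an unadjusted p under 0.05 by limma. Without ricolinostat replicate 2 none of 550 passed (0%) and 82 had an unadjusted p under 0.05. Among these were 3 of the 22 members tested there, all ligands. Tnfsf13 had a signal of 303 and 323 in the JQ1 macrophage libraries, against 509 and 536 in the vehicle macrophage libraries. Tnfsf12 had 735 and 838 under JQ1, against 1228 and 1311 under vehicle. Lta had 40.7 and 25.1 under JQ1, against 57.2 and 73.5 under vehicle. Their adjusted p ranged from 0.311 to 0.327 (limma). Ltb had 324 and 429 under JQ1, against 559 and 1075 under vehicle, so the groups did not overlap, but the difference of -1.05 ± 0.42 without ricolinostat replicate 2 (log2, SE) did not pass. Tnfrsf12a had 663 and 831 under JQ1, against 570.3 and 567 under vehicle (adjusted p = 0.445 without ricolinostat replicate 2, limma). Tnfrsf10b had 53.4 and 49.1 under JQ1, against 48.5 and 83.6 under vehicle. Cd27 and Tnfrsf18 were at or below 9 in all JQ1 and vehicle macrophage libraries, under the floor.

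**Figure D3:**
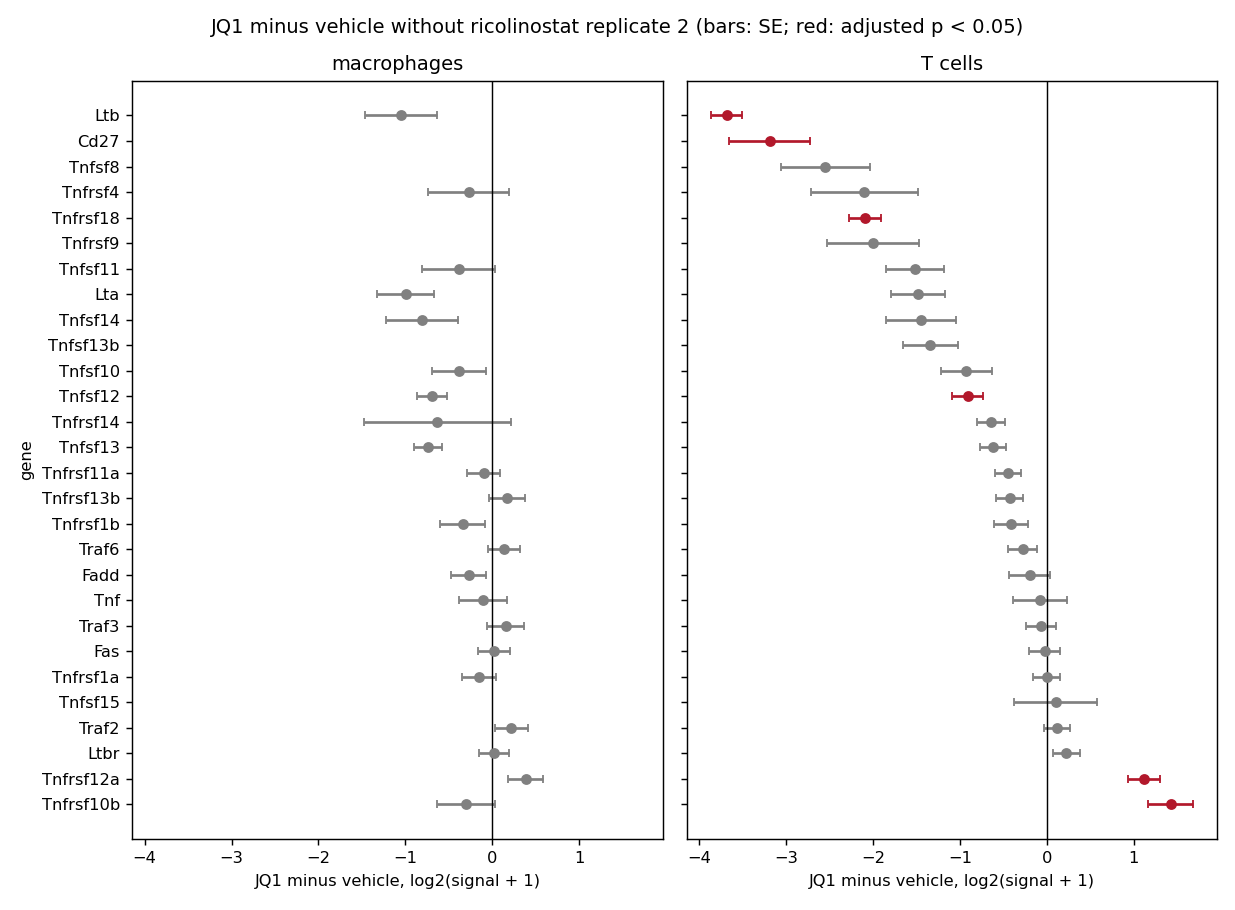
JQ1 minus vehicle for each tested gene, on the log2(signal + 1) scale, in macrophages (left) and T cells (right), fitted without ricolinostat replicate 2. Points are estimates, bars SE, and red marks an adjusted p below 0.05. The 6 red points lie in the T cell panel, between -3.68 and 1.43, and genes without a point on the left were not tested there.

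Whether the JQ1 difference itself differed between cell types was tested over all 12 libraries. Among 659 genes 6 passed (0.91%), none of them among the 28 members tested. Without both ricolinostat replicate 2 libraries 36 of 649 passed (5.55%), with Cd27, Ltb and Tnfrsf18 among them. For Ltb the difference was -1.05 in macrophages and -3.68 in T cells, which differ by 2.63 ± 0.49 (log2, SE; adjusted p = 0.0417 by limma, and 0.356 with all libraries). For Cd27 and Tnfrsf18 the corresponding values were 3.79 and 2.27, but the macrophage values behind them are below the floor. Over the 28 members the median of this difference was 0.28, against 0.15 over all genes.

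Ricolinostat gave no call among the members against vehicle in either cell type. In T cells none of 630 genes passed with all libraries (0%, with 18 at an unadjusted p under 0.05 by limma), and none of 624 without replicate 2 (0%, with 79). In macrophages none of 564 passed with all libraries (0%, with 16 at an unadjusted p under 0.05), and none of 550 without replicate 2 (0%, with 20). With replicate 2 as the lone ricolinostat library, 13 members passed in T cells, where 60.1% of 624 genes did, and 15 in macrophages, where 65.8% of 549 genes did. In macrophages Cd27 had a signal of 40.2 and 23.6 under ricolinostat, against 2.90 and 5.03 under vehicle, and Tnfrsf18 had 33.2 and 127, against 7.86 and 5.03. Both ricolinostat libraries exceeded all 4 others for each gene. By their mean, the signal was at least 1.51-fold higher than vehicle for Cd27 and at least 3.15-fold for Tnfrsf18. Each gene met the filter only through these ricolinostat libraries, so a lower signal under ricolinostat could not have been called. With all libraries the unadjusted p were 0.0062 and 0.0099, and the adjusted p was 0.570 for both (limma). Neither gene was tested without replicate 2. These signals rested on few counts, 11.4 and 3.18 above background for Cd27 and 9.45 and 17.2 for Tnfrsf18. The summed signal of the 15 T cell markers was 320 and 636 in these ricolinostat libraries, against 269 and 436 in the vehicle ones, and its part was not tested. In T cells, Tnfrsf10b had 121 and 352 under ricolinostat, against 48.2 and 72.3 under vehicle, without overlap (unadjusted p = 0.039, adjusted p = 0.657, limma). Cd27 had 24.7 and 27.6 under ricolinostat, against 65.8 and 66.0 under vehicle (adjusted p = 0.657, limma).

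Ltb was higher under ricolinostat than under JQ1 in T cell libraries. It had 471 and 1113 under ricolinostat, against 62.9 and 51.8 under JQ1, a difference of 3.64 ± 0.60 (log2, SE; adjusted p = 0.0382, limma). It was the only one of the 28 members that passed, among 19 of 630 genes (3.02%). Without ricolinostat replicate 2, where the single ricolinostat library is assumed to vary like the others, Ltb was again the only member, among 26 of 624 genes (4.17%), with a difference of 3.02 (adjusted p = 0.0178, limma). Leaving out any JQ1 or vehicle library, centring or quantile normalisation ended this call, and without ricolinostat replicate 1 18 members were called, as were 65.1% of 624 genes. The T cell markers moved the same way, 7 of 15 being higher under ricolinostat with all libraries. This comparison shares its JQ1 libraries with the comparison to vehicle. Cd27, Tnfrsf18 and Tnfsf8 were higher in both ricolinostat libraries than in both JQ1 libraries and did not pass (adjusted p from 0.227 to 0.251, limma). In macrophages none of 564 genes passed for ricolinostat against JQ1 (0%, with 35 at an unadjusted p under 0.05 by limma), and none of 550 without replicate 2 (0%, with 47).

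The ricolinostat replicates differed widely from each other. Replicate 2 exceeded replicate 1 more than 2-fold in both cell types for 8 members, Tnf, Fas, Ltbr, Tnfrsf1a, Tnfrsf1b, Tnfrsf11a, Tnfrsf13b and Tnfrsf18. Tnf had 125 and 1394 in the macrophage replicates and 91.9 and 961 in the T cell replicates. Tnfrsf1a had 3748 and 57742 in macrophages and 3381 and 32337 in T cells, and Tnfrsf1b had 4743 and 61105 in macrophages and 3600 and 37127 in T cells. Tnfrsf13b differed by as much as 16.2-fold in macrophages and 15-fold in T cells. Traf6, Tnfrsf12a, Tnfrsf4 and Tnfsf15 were more than 2-fold lower in replicate 2 in both cell types. For Traf6 the signals were 817 and 53.2 in macrophages and 627 and 168 in T cells, whereas the other adaptor Traf2 had 581 and 853 in macrophages and 606 and 803 in T cells. Members were not alone in this. In macrophages 9 of 27 members were more than 2-fold higher and 9 more than 2-fold lower in replicate 2, against 40.4% and 38.7% of 584 other genes. In T cells 11 of 28 members were higher and 5 lower, against 37.7% and 30.2% of 626 other genes. Over the 20 housekeeping genes, the SD of that log2 difference was 2.66 in macrophages and 2.10 in T cells, against 0.124 to 0.199 in the JQ1 and vehicle groups.

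In macrophages, ricolinostat replicate 2 was the extreme library for several receptors and for Traf6. Tnfrsf1a had 3748 and 57742 under ricolinostat, 3405 and 3859 under JQ1 and 3698 and 4411 under vehicle in macrophage libraries. Tnfrsf1b had 4743 and 61105 under ricolinostat, 4148 and 3921 under JQ1 and 4220 and 6192 under vehicle there. The 5 other libraries lay far under that replicate for both genes. The same held for Ltbr, at 1530 and 6215 under ricolinostat, 1342 and 1495 under JQ1 and 1339 and 1452 under vehicle in macrophages. Fas stood at 276 and 823 under ricolinostat, 178 and 213 under JQ1 and 185 and 199 under vehicle in macrophages, with both ricolinostat libraries above the other 4. Its T cell values under ricolinostat were 259 and 597, again above all JQ1 and vehicle libraries, at a difference to vehicle that did not pass. Tnfrsf11a in macrophages was measured at 719 and 6127 under ricolinostat, 747 and 732 under JQ1 and 721 and 874 under vehicle, and Tnfrsf13b at 195 and 3149 under ricolinostat, 151 and 177 under JQ1 and 133 and 159 under vehicle. Among adaptors, Traf6 in macrophages showed 817 and 53.2 under ricolinostat, 910.4 and 1021 under JQ1 and 819.6 and 939 under vehicle, so that replicate 2 was the lowest library by far, while Traf2 showed 581 and 853 under ricolinostat, 667 and 612 under JQ1 and 602 and 501 under vehicle. Of the genes lower in macrophages, Tnfsf15 had 22.7 and 1.34 under ricolinostat, 13.2 and 10.6 under JQ1 and 2.90 and 13.1 under vehicle in macrophages, and 53.97 and 2.36 in T cells under ricolinostat. Tnfrsf12a in T cells under ricolinostat was split between replicates at 1822 and 493, above and below the vehicle T cells. Tnfsf12 had 727 and 745 in T cells under ricolinostat, below both vehicle and above both JQ1 T cell libraries. Tnfsf8 had 21.2 and 103 and Tnfrsf9 had 52.2 and 27.6 in T cells under ricolinostat, the first overlapping vehicle and the second below it.

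**Figure D4:**
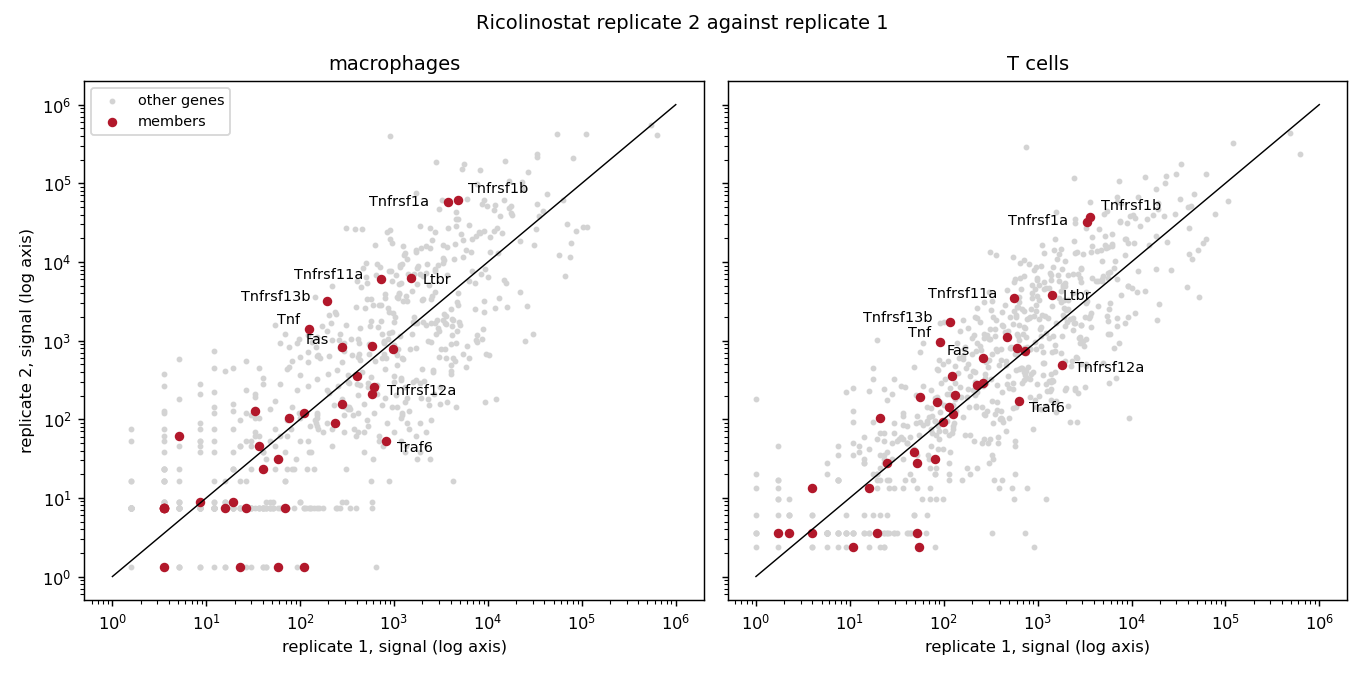
Signal of each gene in ricolinostat replicate 2 (vertical, log axis) against replicate 1 (horizontal, log axis) in macrophages and T cells, with the 35 members in red, other genes in grey and the line of equality. Tnf, Tnfrsf1a, Tnfrsf1b, Tnfrsf11a and Tnfrsf13b lie above the line and Traf6 and Tnfrsf12a below it in both panels.

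Between cell types, averaged over the treatments, 4 of the 5 costimulatory receptors tested and 2 ligands, Tnfsf13b and Tnfsf8, were lower in macrophage libraries. Tnfrsf4, the fifth receptor, had a positive difference that did not pass. Of 28 members tested over 12 libraries 6 fell and none rose, a share near that of the panel, where 124 of 659 genes passed (18.8%), 14 of them higher and 110 lower in macrophages. After centring the libraries on their medians the split was 43 and 86 of all genes and 2 and 4 of the members, and after quantile normalisation 59 and 60 of all genes and 3 and 2 of the members. Centring moved the median over all genes to 0.43 and quantile normalisation to 0.19, against 0.02. Without both ricolinostat replicate 2 libraries 286 of 649 genes passed (44.1%), with 5 members higher and 9 lower, a share of members near that of the panel. With each macrophage library and the T cell library of the same pair as a replicate block, 14 members passed, 5 higher and 9 lower, as did 42.5% of 659 genes. Of these members 12 were among those called without the replicate 2 libraries. The block takes up differences that a pair shares, among them those of the ricolinostat replicate 2 libraries, so its calls are not separate support.

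Tnfsf13b, BAFF, is a survival factor for B cells that myeloid cells are known to make. In macrophage libraries its signal was 3.51 and 7.41 under ricolinostat, 2.12 and 2.41 under JQ1 and 2.90 and 5.03 under vehicle, never above the floor. In T cell libraries it was 48.8 and 38.4 under ricolinostat, 23.0 and 27.0 under JQ1 and 50.2 and 82.9 under vehicle. All 6 macrophage libraries lay below all 6 T cell libraries, and the signal was at least 2.01-fold lower (adjusted p = 0.00016, limma). Tnfsf13b met the filter only through T cell libraries, so a higher signal in macrophages could not have been called. Tnfrsf14 had 36.7 and 45.8 under ricolinostat, 15.4 and 65.9 under JQ1 and 36.9 and 68.5 under vehicle in macrophages, against 132 and 204, 103 and 117, and 171 and 172 in the T cell libraries of the same treatments. These libraries did not overlap either, and the signal was 3.53-fold lower in macrophages (adjusted p = 0.0121, limma). The Tnfrsf14 call ended after quantile normalisation (adjusted p = 0.159, limma).

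The other 4 overlapped between some libraries. Tnfrsf9 ranged from 1 to 28.2 in macrophages, against 17.8 to 146 in T cells, with 5 of the 6 macrophage libraries under the floor. Its fitted difference was -2.79 (adjusted p = 0.0058, limma), and ran from -3.17 to -1.32 over the alternatives that tested it, all of which called it. Tnfrsf18 differed by -1.93 over all treatments (adjusted p = 0.0157, limma), a call that ended with a pseudocount of 20, after centring, after quantile normalisation, where the difference was -0.70, and without vehicle T cell replicate 1 or vehicle macrophage replicate 2. Under vehicle it had 7.86 and 5.03 in macrophages, against 103.0 and 85.0 in T cells, at least 4.51-fold lower (adjusted p = 0.016, limma). Tnfsf8 stayed at or below 8.74 in macrophages, while 4 of the 6 T cell libraries exceeded 20. It too met the filter only through T cell libraries, and its call ended with a pseudocount of 20 and after quantile normalisation. Cd27 had 2.90 and 5.03 in vehicle macrophages, against 65.8 and 66.0 in vehicle T cells, at least 3.19-fold lower (adjusted p = 0.0036, limma). Averaged over treatments the Cd27 difference was -1.19 (adjusted p = 0.0317, limma), it ended without any single vehicle library of either cell type, among others, and it turned to 0.20 after quantile normalisation. Under vehicle alone, 4 of 28 members fell (Tnfrsf18, Tnfsf13b, Cd27 and Tnfsf8) among 70 of 659 genes (10.6%). Leaving out any vehicle library left 1 or 2 of these calls, always with Tnfsf13b. Without the replicate 2 libraries 5 fell and 1 rose among 153 of 649 genes (23.6%). Of the T cell markers 12 of 15 were lower in macrophage libraries over all treatments, and 14 without both ricolinostat replicate 2 libraries. Of the 16 macrophage markers none was higher with all libraries, and C1qa and C1qb were lower. Without both replicate 2 libraries 6 were higher, namely Cd68, Emr1, Mrc1, Msr1, Fcgr3 and Siglec1, and C1qa and C1qb were again lower. Under vehicle, that fit called Mrc1 and Msr1 higher and C1qa and C1qb lower. The summed signal of the 16 markers was 1205440 to 1293490 in vehicle macrophages, against 1370750 to 1398770 in vehicle T cells. The part of either cell type in these differences was not tested.

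Members called higher in macrophages without both ricolinostat replicate 2 libraries did not pass with all libraries at the main setting. With all libraries Tnfsf12 and Tnfsf13 also passed after centring and with the replicate block, Tnfrsf11a with the block, and Fadd and Tnfsf13 after quantile normalisation. Tnfsf13, APRIL, had 406 and 357 under ricolinostat, 303 and 323 under JQ1 and 509 and 536 under vehicle in macrophages, against 263 and 287, 213 and 203, and 320.2 and 319.9 in the T cell libraries of the same treatments. Each macrophage library exceeded both T cell libraries of its treatment, and the difference was 0.64 ± 0.09 (log2, SE; adjusted p = 0.0036, and 0.149 with all libraries, limma). Fadd, the adaptor of death receptors, had 237 and 90.2 under ricolinostat, 218 and 177 under JQ1 and 231 and 245 under vehicle in macrophages, against 125 and 118, 158 and 129, and 142 and 189 in T cells. Ricolinostat macrophage replicate 2 was the only one below its T cell counterparts (adjusted p = 0.018, and 0.504 with all libraries, limma). Tnfsf12 and Tnfrsf11a were higher by 0.45 and 0.32, and Ltb by 1.02, the last an average over treatments that includes the low JQ1 T cell values. With only ricolinostat macrophage replicate 2 left out, the Tnfrsf11a difference was -0.12. Under vehicle the Ltb difference was 0.06 ± 0.34 (log2, SE). The members called lower in addition without these libraries, and with the replicate block, were Tnfrsf12a by -1.38, Tnfsf15 by -1.71 and Tnfrsf10b by -0.73, which was 0.33 after quantile normalisation with all libraries. Tnfrsf12a had 570.3 and 567 in vehicle macrophages, against 974 and 1188 in vehicle T cells. The 4 epithelial markers summed to 2738 to 5331 in macrophage libraries, against 13250 to 82361 in T cell libraries, and their part in the values of Tnfrsf12a and Tnfrsf10b was not tested.

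**Figure D5:**
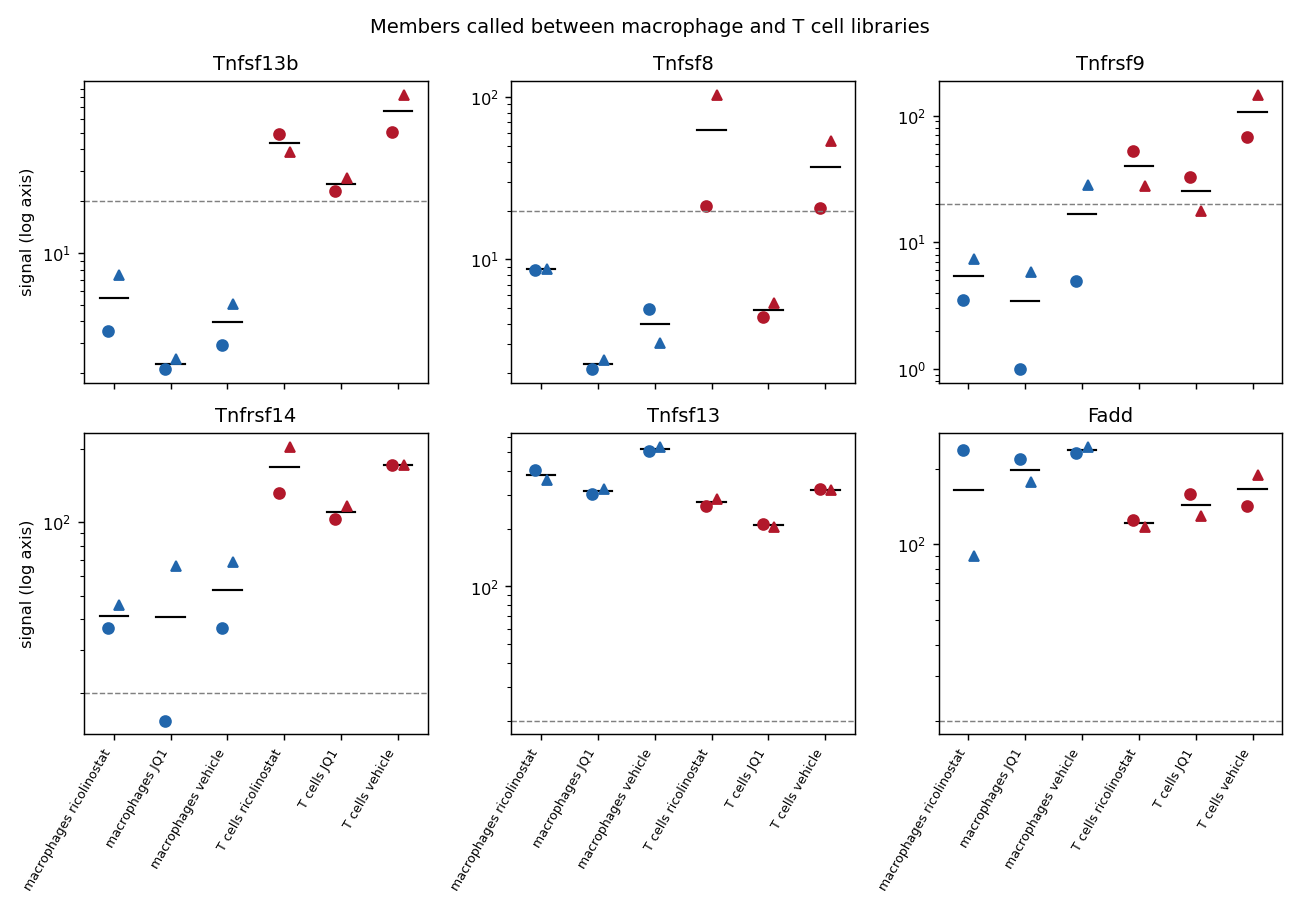
Signal (log axis) in each group of 6 members that passed for macrophages against T cells with all libraries (Tnfsf13b, Tnfsf8, Tnfrsf9, Tnfrsf14) or without both ricolinostat replicate 2 libraries (Tnfsf13, Fadd). Circles are replicate 1, triangles replicate 2, blue macrophages, red T cells, bars group means and dashed lines a signal of 20. Tnfsf13b and Tnfrsf14 separate the cell types completely.

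Few signalling genes downstream of the receptors passed the test. Of 25 NF-kB and kinase genes, all tested, none passed for JQ1 against vehicle in T cells with or without ricolinostat replicate 2, by limma, with a median difference of -0.17. Of 9 apoptosis genes none passed with all libraries. Of 23 genes known to respond to TNF and NF-kB, 19 were tested and only Cxcl5, a neutrophil attractant that epithelial cells make, rose, by 1.77 without ricolinostat replicate 2 (adjusted p = 0.0246, limma). Of 8 lymphotoxin response genes 6 were tested, and Cxcl13, a B cell attractant, was called lower without ricolinostat replicate 2 (adjusted p = 0.0303, limma), although a single library of the JQ1 and vehicle T cells exceeded the floor, vehicle replicate 1. Between macrophages and T cells the apoptosis inhibitor Bcl2 was the only apoptosis gene lower with all libraries, and no NF-kB or kinase gene passed.

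Of the superfamily members outside the naming rule, Fasl, the ligand by which cytotoxic lymphocytes engage Fas, had 1.43 and 1.55 in the JQ1 T cell libraries, against 36.5 and 42.7 in the vehicle T cell libraries, at least 1.93-fold lower (adjusted p = 0.0125, limma). Cd40lg, the helper T cell ligand of CD40, had 12.97 and 1 under JQ1, against 148 and 110.4 under vehicle (adjusted p = 0.0573, limma). Cd40 itself had 32.9 and 41.0 under JQ1, against 42.3 and 27.9 under vehicle, and the groups overlapped.

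Within the macrophage panel, 11 members were not tested because fewer than 2 of the 6 libraries exceeded 20. These were the 7 untested in T cells together with Tnfrsf9, Tnfsf13b, Tnfsf15 and Tnfsf8. Cd70, the ligand of CD27, had 60.6 in ricolinostat replicate 2, on 8.18 counts above background, and at most 16.6 in the other macrophage libraries. Tnfsf4, Tnfrsf13c and Tnfrsf17, which encode the OX40 ligand, the BAFF receptor and BCMA, were at or below 15.6 in all 12 libraries.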

How the data were processed

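RNA from 12 libraries, 2 for each of 6 groups of cell type and treatment, was measured on a NanoString panel. In the deposited table each gene has 1 signal value for every library, which the values show to be linear and scaled. The authors' normalisation method is not stated in the labels or headers. The low values of each library lie on steps, and total signal divided by the step gave the estimated counts above background. The 35 genes and all gene lists were chosen with earlier results of these data known, so no list is independent evidence.

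limma 3.58.1 (R 4.3.3) was fitted to log2(signal + 1) with a mean for each group, giving two-sided p-values and BH adjustment over all genes tested at 0.05, in the 6 libraries of a cell type or all 12. Genes needed a signal above 20 in at least 2 of these libraries, and 20 housekeeping genes were not tested. Folds are on the log2(signal + 1) scale. Where every library of a group was at or below 20, the fold is a bound, the other group's mean on that scale over 20 + 1. Such a gene met the filter only through other libraries, so a higher signal in that group could hardly be called. The fit was tested on simulated data in which every library had the spread of the JQ1 and vehicle groups. That simulation leaves out the wider spread between ricolinostat replicates, so it does not bear on fits that include both. Alternatives were a pseudocount of 20, no filter, a filter at 100, centring on library medians, quantile normalisation, the pairs as a block and leaving out each library. Replicates were numbered in record order. Within a treatment, the T cell and macrophage libraries whose last label numbers differ by 6 were taken as pairs. The labels do not say that such libraries share an animal. The pairing was kept because the deviations of paired libraries from group means correlated above 0.1 over 659 genes. The correlations were 0.790 for ricolinostat, 0.250 for JQ1 and 0.135 for vehicle. With 2 libraries a group the opposite pairing only reverses their sign, and they come from the values the block fit uses. They are therefore no independent check of the pairing.

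Genes chosen to be given by library are those that passed in a comparison, with or without ricolinostat replicate 2, and the 2 of highest mean signal in each role. Not every library is printed for each of them, and some other genes are given beside them. Signals of different genes come from different probes and are not compared. Promoters are RefSeq sequences of GRCm38.p6, matched by symbol, as were all 35 names. Figures were drawn with matplotlib 3.10.9. Some items are not reported here.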

Additional observations from a re-analysis of the deposited data

Results flagged for a closer look

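The JQ1 difference of 3 members differed between the cell types when both ricolinostat replicate 2 libraries were left out, by the test of the difference itself in limma over 649 genes. The difference in macrophages minus that in T cells was 3.79 for Cd27 (adjusted p = 0.0308, limma), 2.63 for Ltb (adjusted p = 0.0417, limma) and 2.27 for Tnfrsf18 (adjusted p = 0.0381, limma). With all 12 libraries the adjusted p were 0.0632, 0.356 and 0.665 (limma). Ltb is the only one of these 3 measured above the floor in both cell types, and both JQ1 libraries were below both vehicle libraries in each. Cd27 and Tnfrsf18 were below the floor in the JQ1 and vehicle macrophage libraries. The summed T cell markers stood at 187 to 194 in JQ1 T cell libraries, against 5359 to 5603 in vehicle T cell libraries, and their part in the differences was not tested.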

How the results depend on the processing

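With 2 libraries a group and few counts near the floor, calls depended on single libraries and on scaling. For JQ1 against vehicle in T cells the 2 calls became 0 with a pseudocount of 20, 1 with a floor of 100 (Ltb), 1 after centring (Ltb) and 0 after quantile normalisation. Leaving out 1 library gave 0 to 6 calls, with 0 for each JQ1 or vehicle library, where the lone library left is assumed to vary like the others, and 6 when either ricolinostat library was left out. For ricolinostat against JQ1 in T cells the single call became 0 with a pseudocount of 20, 0 after centring and 0 after quantile normalisation, and leaving out 1 library gave 0 to 18, the most without ricolinostat replicate 1. Leaving out 1 library gave 0 to 13 for ricolinostat against vehicle in T cells, 0 to 15 in macrophages and 0 to 14 for ricolinostat against JQ1 in macrophages, the highest values again without ricolinostat replicate 1, where replicate 2 stands alone. No alternative gave a call for JQ1 in macrophages. For macrophages against T cells the 6 calls became 2 with a floor of 100, 14 without both ricolinostat replicate 2 libraries, 14 with the replicate block, and 4 to 9 with 1 library left out. Under vehicle the 4 calls became 2 with a pseudocount of 20, 1 with a floor of 100, 2 after centring, 2 after quantile normalisation and 1 to 4 with 1 library left out, and the pairing by block gave 4, of which 3 were shared, Tnfsf8 losing and Tnfsf15 gaining a call. For the difference between the JQ1 differences the 0 calls became 3 without both replicate 2 libraries and 0 to 1 with 1 library left out, and 0 with the block. In macrophages against T cells, 15 of 28 members had negative differences, and 9 did after quantile normalisation, where among members called in that comparison Cd27 turned to 0.20 and Tnfrsf10b to 0.33, and Tnfrsf11a, at 0.40 with all libraries, ranged from -0.12 to 0.91 with 1 library left out. The causes of these changes were not tested. Over single genes and settings, 404 values kept direction and side of the threshold, 59 lost and 37 gained a call, and 4 reversed.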
